A study of Mus musculus with 4 samples.

Results

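The genes described here build and load MHC class I, the cell surface molecule that shows peptides from inside a cell to CD8+ T cells. They were chosen by symbol, with earlier results of these data known. All 10 were found among the 32285 genes used: the heavy chains H2-K1 and H2-D1, the light chain B2m, the peptide transporter subunits Tap1 and Tap2, the loading chaperone Tapbp, the immunoproteasome subunits Psmb8, Psmb9 and Psmb10, and the transactivator Nlrc5. They were measured by droplet single-cell RNA-seq in orthotopic pancreatic tumors grown from KPC cells, a mouse pancreatic adenocarcinoma line, in C57BL/6 mice kept on a high-fat diet for 24 weeks. There were 4 libraries, 1 per condition. Pdgfrb-TK mice carry a viral thymidine kinase under the Pdgfrb promoter, so that ganciclovir (GCV) kills their dividing Pdgfrb+ cells, and they received GCV at 50 mg/kg (Pdgfrb-TK/GCV) or PBS (Pdgfrb-TK/PBS). Wild-type mice received D-CAN, a hunter-killer peptide that homes to adipose stromal cells and related CAFs, at 30 mg/kg (D-CAN), or PBS (WT/PBS). Treatment ran for 25 days in each arm, and the labels give an age of 7 months for all 4 groups, which differs from the age in the study's methods. All tumors came from 1 implanted cell line, the Pdgfrb promoter is also active in pericytes, and the methods describe cell suspensions combined by treatment, so animal-to-animal variation cannot be seen in these libraries.

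In a cell that presents antigen, the proteasome cuts proteins into peptides, the TAP transporter carries them into the endoplasmic reticulum, and tapasin, encoded by Tapbp, holds the empty heavy chain and B2m at the transporter until a fitting peptide binds. Interferon gamma raises most of these genes together, exchanges the constitutive catalytic subunits of the proteasome for the immunoproteasome subunits, and induces Nlrc5, which is recruited to the promoters of class I genes. Low class I is common in pancreatic tumor cells, while endothelial cells (ECs) and leukocytes carry it at high levels.

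The major histocompatibility complex on chromosome 17 holds 7 of the genes (GRCm38, GENCODE M21), and Tap1, Tap2, Psmb8 and Psmb9 are neighbours there. Psmb9, at chr17:34181987-34187764 on the reverse strand, overlaps Tap1, at chr17:34187553-34197225 on the forward strand. B2m lies on chromosome 2 and Psmb10 and Nlrc5 on chromosome 8. H2-K1 and H2-D1 are close paralogs of each other and of the H2-Q and H2-T genes, so the division of reads among them is uncertain.

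The start sites of the 2 heavy chains, the light chain and the transporter subunit Tap1 are shown as examples. All 10 genes were higher in the D-CAN KPC cells below, so that does not set these apart. Each window runs from 250 bases before to 50 bases after a start (RefSeq, GRCm38.p6), 5′ to 3′ on the gene's strand, and capitals mark matches to the motifs searched on both strands. The share of windows given beside a motif counts those with a match on either strand. A window was found for 8 of the 10 genes, all but Tap2 and Nlrc5, and H2-K1 has 2 overlapping windows, of which 1 is shown.
H2-K1, chr17:34000298-34000597, reverse strand: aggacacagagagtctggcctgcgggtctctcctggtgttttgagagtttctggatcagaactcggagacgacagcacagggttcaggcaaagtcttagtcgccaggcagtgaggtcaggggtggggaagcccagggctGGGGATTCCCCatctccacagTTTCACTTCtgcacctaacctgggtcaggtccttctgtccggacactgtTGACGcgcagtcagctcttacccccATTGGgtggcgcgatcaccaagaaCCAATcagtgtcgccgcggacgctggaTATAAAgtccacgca
H2-D1, chr17:35262844-35263143, forward strand: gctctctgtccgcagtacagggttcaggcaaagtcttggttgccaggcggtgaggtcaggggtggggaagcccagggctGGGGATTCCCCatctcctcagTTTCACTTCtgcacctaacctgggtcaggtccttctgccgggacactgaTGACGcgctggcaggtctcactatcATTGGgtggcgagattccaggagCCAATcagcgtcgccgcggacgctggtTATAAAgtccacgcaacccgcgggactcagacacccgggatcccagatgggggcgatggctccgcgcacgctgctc
B2m, chr2:122147437-122147736, forward strand: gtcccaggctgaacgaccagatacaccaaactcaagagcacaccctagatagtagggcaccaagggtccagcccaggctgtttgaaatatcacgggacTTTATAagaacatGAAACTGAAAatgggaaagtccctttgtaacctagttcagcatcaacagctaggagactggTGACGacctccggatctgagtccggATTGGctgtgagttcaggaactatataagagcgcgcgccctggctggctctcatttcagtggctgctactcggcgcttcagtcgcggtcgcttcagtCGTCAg
Tap1, chr17:34187306-34187605, forward strand: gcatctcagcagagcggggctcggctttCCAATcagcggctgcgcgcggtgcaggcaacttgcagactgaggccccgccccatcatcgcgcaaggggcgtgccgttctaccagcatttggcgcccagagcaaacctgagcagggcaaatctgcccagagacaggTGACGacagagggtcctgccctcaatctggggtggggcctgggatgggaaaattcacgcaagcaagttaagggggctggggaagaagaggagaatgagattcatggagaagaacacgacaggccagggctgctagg
The enhancer A element, bases 140 to 150 of the H2-K1 window above, stands in the H2-K1 and H2-D1 windows and in 0.0304% of all 32851 windows (10 windows). Both heavy chain windows also hold the interferon consensus letters TTTCACTTC (0.505% of windows) after 10 more bases, then TGACG (20.8%), CCAAT (37.4%), here with 1 match on each strand, and TATAAA (13.6%). The B2m window holds the interferon-stimulated response element core, GAAA and GAAA with any 2 bases between, at bases 112 to 121 (3.44%), and the Psmb8 window alone among these genes holds the gamma-activated site TTCNNNGAA (8.30%). Tap1 and Psmb9 are transcribed away from each other and their windows share 275 bases. No motif searched was found in the Psmb10 window, and no matches overlapped each other. A match describes letters in the window and does not show that a factor binds there.

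The deposited matrices held 10495 to 12280 cells per library, and 10178 to 12280 had at least 200 genes, with 84000174 to 155382616 unique molecular identifiers (UMIs, counts of distinct captured molecules) per library. A cell was given a class when at least 3 markers of that class were on, each at 1 or more UMIs per 10000, and led the next class by at least 1 marker. This gave, in the order of Pdgfrb-TK/GCV, its control Pdgfrb-TK/PBS, then D-CAN with its control WT/PBS, which is kept below, 7195, 7337, 3856 and 5966 KPC cells and 47, 141, 98 and 402 ECs. The KPC markers include general epithelial genes, such as Krt8, Krt18 and Epcam, so host duct epithelium was not told apart from implanted cells. Median UMIs per KPC cell were 11936, 8029, 19792 and 12788, highest in D-CAN. Over all cells kept, the median was lowest in D-CAN, at 6950, 5203, 4514.5 and 7421. At least 2 markers of another class were on in 7.81% to 19.7% of the KPC cells and 41.8% to 72.3% of the ECs, and 25 to 40 cell barcodes were shared between pairs of libraries. Levels are UMIs of a gene per 1000000 UMIs (CPM) in the summed cells of a class. Conditions were not tested against each other, since each has a single library, folds carry a 95% interval for counting error only, and in summed cells fewer cells that express a gene and less RNA of it per cell cannot be told apart except where shares of cells are given. A gene is called higher or lower when it differed by at least 1.5-fold on the scale log2(CPM + 1), which shrinks the difference of genes near 1 CPM, and had at least 50 UMIs over both libraries.

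KPC cells of the D-CAN library held more of each of the 10 genes than KPC cells of any other library. All 10 genes were at least 1.5-fold higher than in WT/PBS, against 20.9% of the 16194 genes compared. Their median log2 ratio was 2.96, against 0.13 over all genes, and the 10 ranked between the percentiles 94.3 and 99.96 of all genes. In the Pdgfrb-TK/GCV library 3 of 10, H2-K1, B2m and Psmb8, were at least 1.5-fold higher than in Pdgfrb-TK/PBS, against 12.1% of 15666 genes, and none was lower, against 5.20%. Their median log2 ratio was 0.32, against 0.11 over all genes. Scaling by the trimmed mean of M values (TMM) would move every log2 ratio in KPC cells by -0.12 for D-CAN and -0.17 for GCV, and it leaves 2 genes called for GCV, because B2m then falls under the fold. Between the PBS libraries 0 of 10 passed in either direction, against 15.0% of genes higher and 12.0% lower in Pdgfrb-TK/PBS. That comparison shares a library with each treatment comparison, and its libraries also differ in host genotype.

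**Figure D1:**
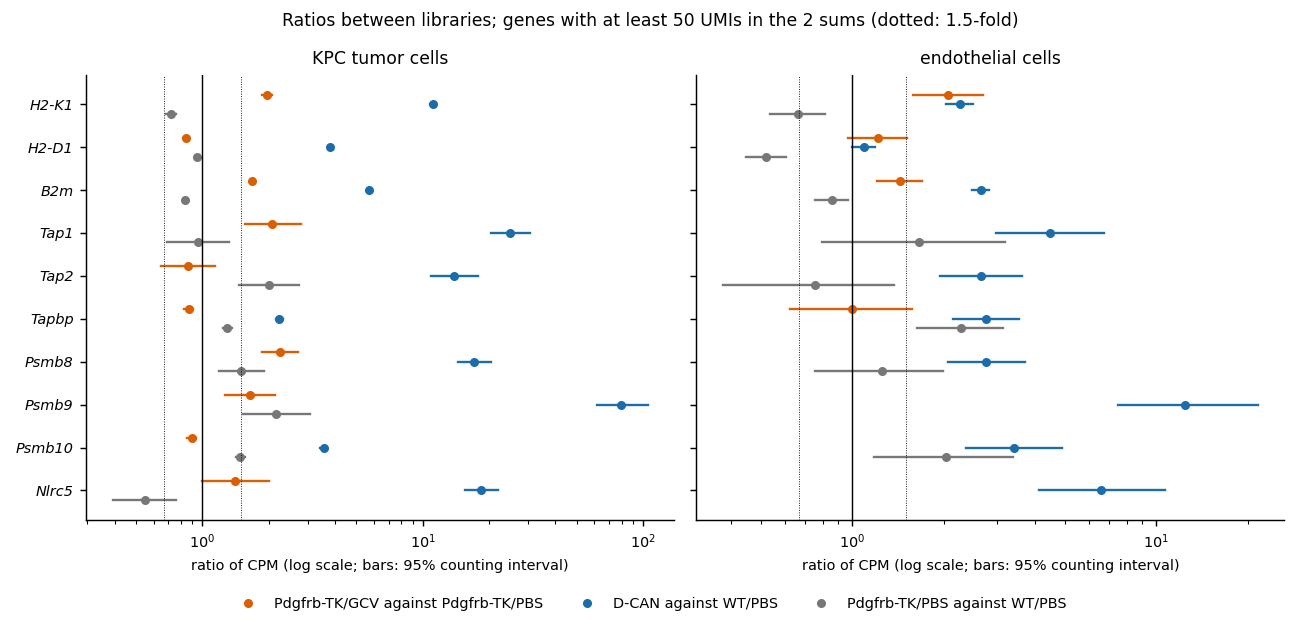
Ratio of CPM between libraries (log axis) for each gene with at least 50 UMIs in the sums compared, in KPC cells and ECs, with 95% counting intervals and dotted lines at 1.5-fold. In KPC cells all 10 D-CAN ratios lie to the right of the upper dotted line, while PBS against PBS ratios lie on both sides of 1 and pass a dotted line on this scale only for scarce genes, Tap2, Psmb8, Psmb9 and Nlrc5.

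Heavy chain H2-K1 was at 54.1 CPM in KPC cells after GCV and 27.5 CPM in their PBS control, and at 422 CPM after D-CAN against 38.0 CPM in WT/PBS. H2-D1, the other classical heavy chain, was at 111, 132, 528 and 140 CPM. D-CAN stood far above the other 3 libraries for both chains. H2-K1 was 11.1-fold higher in D-CAN than in WT/PBS (95% counting interval 10.8 to 11.5) and H2-D1 3.79-fold (3.72 to 3.85). The chains parted under GCV: H2-K1 was 1.97-fold higher than in Pdgfrb-TK/PBS (1.87 to 2.07), and H2-D1 was at 0.838-fold (0.816 to 0.861), within the 1.5-fold range. H2-K1 in the PBS libraries themselves differed by 0.723-fold (0.686 to 0.762).

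The light chain B2m, without which the heavy chains do not fold stably, was at 230, 137, 937 and 164 CPM. It followed H2-K1, with D-CAN highest, Pdgfrb-TK/GCV next and the PBS libraries lowest. The fold was 5.70 in D-CAN (5.61 to 5.79) and 1.68 in Pdgfrb-TK/GCV (1.64 to 1.72).

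The CPM ratio of Tap1 in D-CAN was larger than that of the chains, while the interval of Tap2 covers the H2-K1 fold. Both transporter genes were at a level near 1 CPM elsewhere. Tap1 was at 1.80, 0.866, 22.6 and 0.905 CPM in KPC cells, from 189, 66, 2227 and 105 UMIs, and Tap2 at 1.09, 1.27, 8.83 and 0.638 CPM. Tap1 was 24.9-fold higher in D-CAN than in WT/PBS (20.5 to 30.6) and Tap2 13.8-fold (10.9 to 17.8). Tap1 in Pdgfrb-TK/GCV was 2.07-fold above Pdgfrb-TK/PBS in CPM (1.56 to 2.79) but at a log2 ratio of 0.58 once 1 CPM was added, just inside the range. Tap2 was at 0.859-fold there (0.650 to 1.14), an interval that spans equal levels. Tapbp was at 40.4, 46.6, 80.4 and 36.0 CPM, and its D-CAN fold of 2.23 (2.15 to 2.32) was the smallest of the 10.

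The immunoproteasome subunits were scarce outside the D-CAN library, apart from Psmb10. Psmb9 was at 1.81, 1.10, 40.6 and 0.509 CPM in KPC cells, from 190, 84, 4005 and 59 UMIs. Psmb8 was at 4.30, 1.92, 21.8 and 1.28 CPM, and Psmb10 at 38.3, 42.8, 102 and 28.9 CPM. Psmb9 had the largest fold of the 10 genes between D-CAN and WT/PBS, 79.8 (61.7 to 105). Its WT/PBS level is set to 0 when host RNA is subtracted (below). Among the 3 subunits Psmb8 followed at 17.1 (14.5 to 20.4), then Psmb10 at 3.55 (3.41 to 3.69). In Pdgfrb-TK/GCV only Psmb8 of the 3 passed the fold, at 2.24 (1.86 to 2.72), while Psmb9 was at 1.64 (1.26 to 2.14) and Psmb10 at 0.895 (0.855 to 0.938).

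Each immunoproteasome subunit takes the place of a constitutive one, Psmb8 of Psmb5, Psmb9 of Psmb6 and Psmb10 of Psmb7, so the ratio of their UMIs follows the exchange at the RNA level. Within KPC cells the Psmb9 to Psmb6 ratio was 0.00837, 0.00497, 0.200 and 0.00228. The Psmb8 to Psmb5 ratio was 0.0207, 0.00792, 0.0907 and 0.00678, and that of Psmb10 to Psmb7 0.251, 0.344, 0.733 and 0.180. All 3 ratios were highest in D-CAN. None was corrected for host RNA. Outside D-CAN, the subtraction described below removes 100% of Psmb8 and 94.7% to 100% of Psmb9 in KPC cells. The Psmb8 to Psmb5 and Psmb9 to Psmb6 ratios of those libraries therefore cannot be read as an exchange in KPC cells. The constitutive subunits themselves stayed within the range in D-CAN against WT/PBS (0 of 3 called, with 20.9% of all genes higher). They were at 1.28-fold for Psmb5, 0.910 for Psmb6 and 0.868 for Psmb7. In ECs the Psmb9 to Psmb6 ratio was 0.265, 0.110, 0.615 and 0.0601, and in macrophages 0.314, 0.254, 0.757 and 0.141, again with D-CAN highest in both. The ratio compares libraries for 1 pair of genes and not 1 pair with another.

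**Figure D2:**
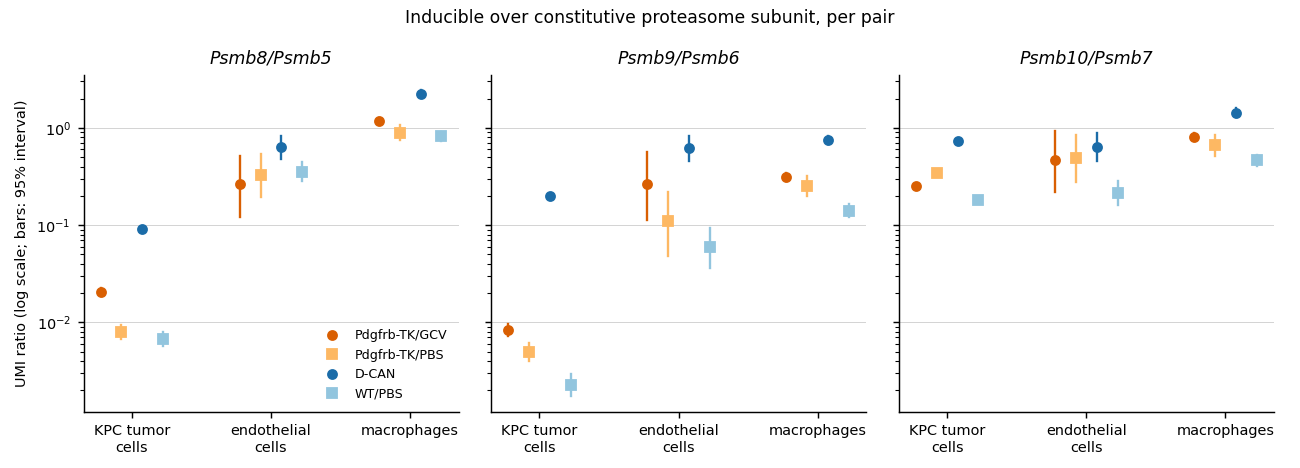
Ratio of immunoproteasome to constitutive subunit UMIs (log axis) in each library for KPC cells, ECs and macrophages, in 1 panel per pair of subunits, with 95% intervals for counting error. The D-CAN points are the highest in each class shown for all 3 pairs.

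Nlrc5, the transactivator of class I genes, was at 0.960, 0.682, 22.9 and 1.24 CPM, from 101, 52, 2256 and 144 UMIs. It was low in 3 libraries and 18.4-fold higher in D-CAN than in WT/PBS (15.5 to 21.9). In Pdgfrb-TK/GCV it was at 1.41-fold of Pdgfrb-TK/PBS, with an interval of 0.997 to 2.01 that spans equal levels.

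**Figure D3:**
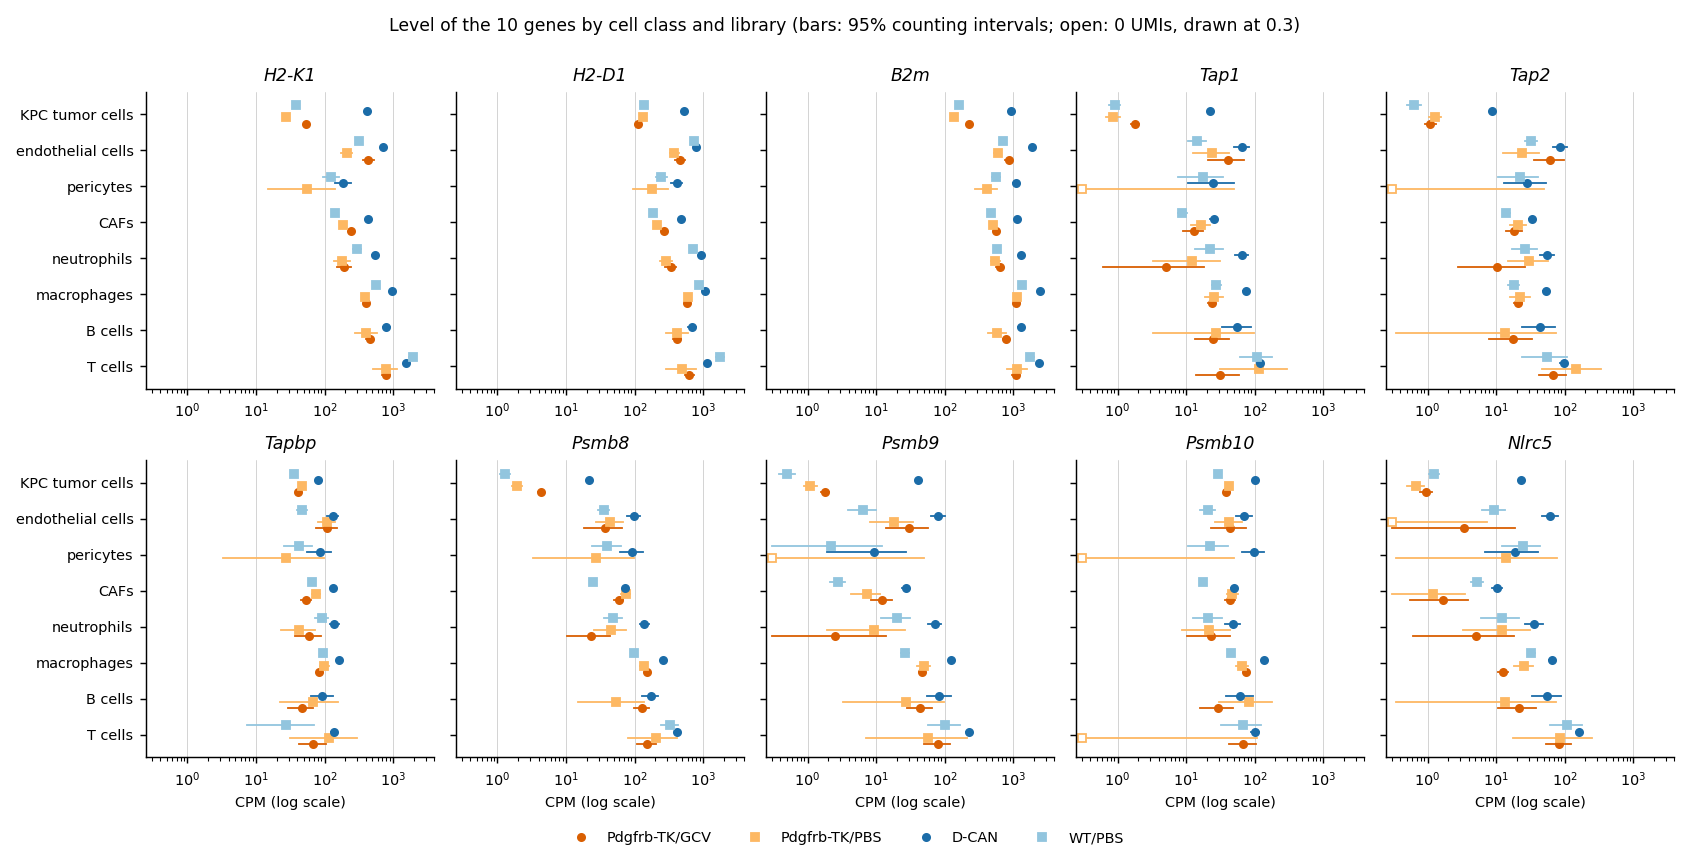
Level of each of the 10 genes in CPM (log axis) by cell class, with 1 point per library and 95% counting intervals, open where no UMI was found. In KPC cells the D-CAN point stands above the other 3 for each gene.

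The pathway around these genes differed in part. Of 5 peptide loading partners, Tapbpl, which edits peptides outside the loading complex, was 3.53-fold higher in D-CAN KPC cells than in WT/PBS and Erap1, the peptidase that trims peptides in the endoplasmic reticulum, 2.64-fold. The general chaperones of the same complex stayed within the range, Calr at 1.12-fold, Canx at 1.33 and Pdia3 at 1.12. Both subunits of the proteasome activator were higher, Psme1 by 2.59-fold and Psme2 by 3.36-fold. Among 10 class Ib genes, which encode class I molecules of low polymorphism, 7 were higher in D-CAN (20.9% of all genes), led by H2-Q4 at 15.7-fold. H2-Q6 and H2-Q7 were both at 3.59-fold. The last 2 were also higher in Pdgfrb-TK/GCV (12.1% of all genes), at 4.95-fold and 3.73-fold. Both were scarce in KPC cells, H2-Q6 at 0.780, 0.157, 1.14 and 0.319 CPM and H2-Q7 at 1.66, 0.446, 2.75 and 0.767 CPM. T cells of the D-CAN library held them at 183 and 545 CPM. Host RNA was not subtracted for the class Ib genes, so whether these folds belong to the KPC cells was not tested.

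Of 13 regulators and interferon inputs, 12 had enough UMIs in KPC cells and 5 of these were higher in D-CAN (20.9% of all genes). Among them, Irf1, an interferon-induced transcription factor, was at 3.61-fold, Rfxank at 2.53, Irf2 at 2.07 and Rfx5 at 1.88. The interferon receptors and their kinases were within the range, with Ifngr1 at 1.04, Ifngr2 at 0.925, Ifnar1 at 1.28, Ifnar2 at 1.03, Jak1 at 0.904 and Jak2 at 1.37. None of the 12 passed in Pdgfrb-TK/GCV against Pdgfrb-TK/PBS (12.1% of all genes higher, 5.20% lower). Ifng, which encodes interferon gamma, had 24 UMIs in D-CAN KPC cells and 2 in WT/PBS, too few to be counted. Some of these genes also differed between the PBS libraries in KPC cells. Psme1 and Psme2 were both higher in Pdgfrb-TK/PBS than in WT/PBS, Psme1 at 172 against 114 CPM and Psme2 by 1.86-fold. D-CAN held them at 296 and 189 CPM. Of the 12 regulators and inputs counted there, 3 were higher (15.0% of genes) and 1 was lower (12.0%). Of 8 class Ib genes counted, 1 was higher (15.0%).

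The difference was also seen cell by cell. KPC cells with at least 2000 UMIs (6290, 6493, 3591 and 5351 cells) were thinned to 2000 UMIs each, so that depth was equal. UMIs of both B2m and at least 1 heavy chain were then found in 9.94%, 6.47%, 45.9% and 7.06% of the KPC cells, with exact 95% binomial intervals of 9.21% to 10.7%, 5.88% to 7.09%, 44.3% to 47.6% and 6.39% to 7.78%. Before thinning the shares were 52.7%, 37.0%, 83.7% and 51.1%. Cells with no UMI of any of the 3 chains made up 52.0%, 61.8%, 18.9% and 58.6% of thinned KPC cells, lowest in D-CAN. Psmb9 was detected in 0.429%, 0.308%, 5.04% and 0.168% of thinned KPC cells and Nlrc5 in 0.270%, 0.185%, 5.15% and 0.336%. Every host class carries class I, so genes of other cells serve as the reference for free RNA. These reference genes are also markers of the gate, which selects against them in KPC cells, so they can understate free RNA. C1qa of macrophages was found in 4.32%, 1.29%, 1.11% and 0.878% of the same cells, Cd3e of T cells in 0.0636%, 0.0154%, 0.195% and 0%, and Cdh5 of ECs in 0.159%, 0.154%, 0.0835% and 0.299%. Outside D-CAN the Psmb9 and Nlrc5 shares lay below that of C1qa and above that of Cd3e. In D-CAN both were above all 3 reference genes.

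**Figure D4:**
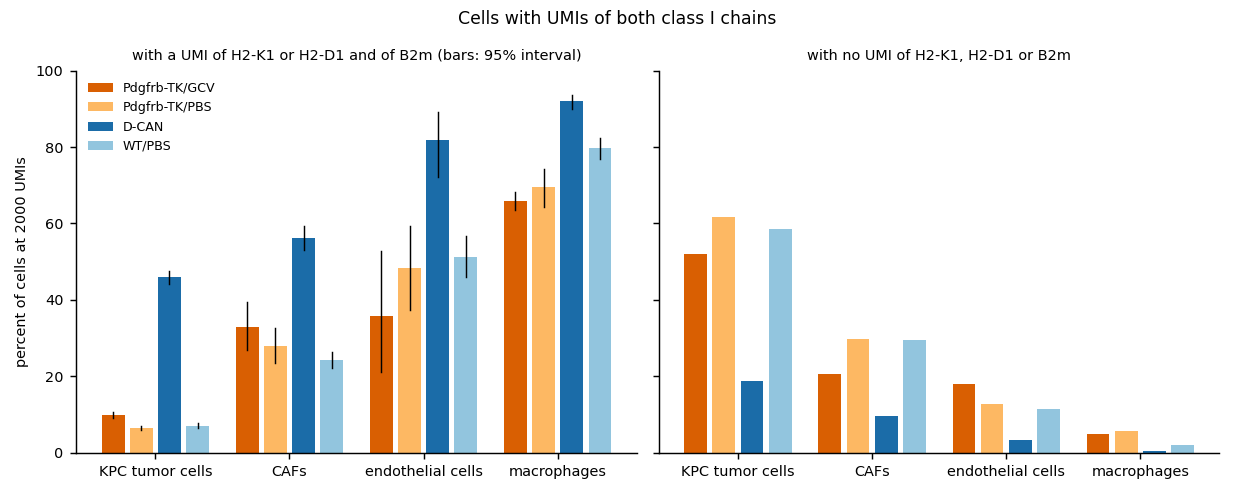
Percent of cells thinned to 2000 UMIs that hold B2m and a heavy chain (left, with exact 95% binomial intervals for counting error) or none of the 3 chains (right), by library, in KPC cells, CAFs, ECs and macrophages. In KPC cells 45.9% of D-CAN cells hold both, against 6.47% to 9.94% in the other libraries.

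RNA of host cells in the KPC sums was measured with the host markers. The gate used the same markers, so their share in KPC cells, and the amount subtracted below, can be too low. The 10 macrophage markers, all detected, stood in KPC cells at 1.92%, 1.18%, 1.07% and 1.09% of their level in macrophages, and the T cell markers at 0.820%, 0.616%, 0.970% and 0.248% of theirs. Psmb9 in KPC cells stood at 3.88%, 2.22%, 33.0% and 1.92% of its macrophage level, and H2-K1 at 13.3%, 7.14%, 43.6% and 6.70%. In D-CAN both were far above the share of the markers, while Psmb9 in the other libraries was closer to the macrophage marker share. Subtracting host RNA in proportion to the markers removed 3.23% (Psmb10) to 43.3% (Psmb8) of the D-CAN KPC levels. For Psmb8 the amount to subtract, 4.69, 3.40 and 2.32 CPM in Pdgfrb-TK/GCV, Pdgfrb-TK/PBS and WT/PBS, was more than the level measured in each of these libraries. Psmb8 was then set to 0 in both libraries of the GCV comparison, which leaves no difference to read there.

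KPC cells are not uniform, and 5 overlapping subsets by markers and 4 ranges of depth were compared in the same way, chosen after seeing the data. All 10 genes passed the fold in D-CAN against WT/PBS in each of the 9, without the minimum of 50 UMIs, with medians from 2.06 in KPC cells of 500 to 5000 UMIs to 3.15 in those with Pkhd1 or Tenm1 on. The GCV count was not steady. It was 6 of 10 in KPC cells with Hmga2 and Klhl1 off, and 0 of 10 with 1 gene lower in those with Krt19 and Krt7 off. The share of all genes past the fold was not computed within these subsets and ranges. The counts in them therefore cannot be set against a general shift.

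ECs line the vessels that T cells leave to enter a tumor, and in them too the D-CAN library had the highest level of each of the 10 genes. H2-K1 was at 437, 211, 719 and 318 CPM in ECs, H2-D1 at 461, 380, 794 and 728, and B2m at 864, 601, 1860 and 702. Tap1 was at 40.7, 24.1, 65.1 and 14.6 CPM, Tap2 at 61.0, 24.1, 85.3 and 32.1, and Tapbp at 108, 109, 131 and 47.6. D-CAN was highest for each of these 6 genes, by little over WT/PBS for H2-D1 and by little over both Pdgfrb-TK libraries for Tapbp. Psmb9 was at 30.5, 18.1, 80.8 and 6.48 CPM, Psmb8 at 37.3, 44.2, 97.6 and 35.3, Psmb10 at 44.0, 42.2, 70.7 and 20.7, and Nlrc5 at 3.39, 0, 61.7 and 9.40. The Pdgfrb-TK libraries rest on few EC molecules: Nlrc5 had 1 and 0 UMIs there, against 55 and 29 in D-CAN and WT/PBS.

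In ECs 9 of 10 genes were at least 1.5-fold higher in D-CAN than in WT/PBS, against 24.9% of 7987 genes, with a median log2 ratio of 1.44 against 0.17 over all genes. Psmb9 differed most, by 12.5-fold (7.51 to 21.6), then Nlrc5 by 6.57 (4.11 to 10.7) and Tap1 by 4.46 (2.97 to 6.74). H2-K1 was 2.26-fold higher (2.04 to 2.50) and B2m 2.65-fold (2.48 to 2.82). H2-D1 was within the range at 1.09-fold (1.001 to 1.19), and TMM scaling, which moves the EC log2 ratios by -0.31, turns its direction. In Pdgfrb-TK/GCV against Pdgfrb-TK/PBS 4 genes had enough UMIs, and 1 was higher, H2-K1 at 2.07-fold (1.59 to 2.70), against 12.5% of 3034 genes, and none was lower (11.4%). H2-K1 turned to a log2 ratio of -0.13 without ECs that had 2 or more markers of another class on, which left only 13 ECs in Pdgfrb-TK/GCV and 42 in Pdgfrb-TK/PBS, and to -0.29 at equal depth. Between the PBS libraries 3 of 8 genes counted, Tap1, Tapbp and Psmb10, were higher in Pdgfrb-TK/PBS (18.9% of genes) and 2, H2-K1 and H2-D1, lower (18.3%). KPC markers, which the gate also used, stood in the EC sums at 7.36%, 21.8%, 6.80% and 11.3% of their KPC level, most in Pdgfrb-TK/PBS. Subtracting KPC RNA in that proportion removed 0.705% (Tap2) to 9.85% (Psmb10) of the D-CAN EC levels and 0.224% (Tap2) to 15.7% (Psmb10) of those in WT/PBS. After it 9 of 10 genes were still past the fold in D-CAN, with a median log2 ratio of 1.47, and 1 of 4 under GCV, with no share of all genes computed. RNA of other host classes was not subtracted in ECs. ECs with both chains made up 35.9%, 48.3%, 81.8% and 51.3% after thinning, in 39, 87, 88 and 353 cells, and 61.7%, 52.5%, 90.8% and 69.2% before.

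CAFs, macrophages and neutrophils of the D-CAN library also held more of most of these genes than in WT/PBS. In CAFs all 10 passed (25.2% of genes), with H2-K1 at 3.05-fold and Psmb9 at 9.77-fold. In macrophages 9 of 10 passed (26.8%), with Psmb9 at 4.66-fold and H2-D1 at 1.23, within the range. In neutrophils 9 of 10 passed (27.1%), with H2-D1 at 1.31, within the range. T cells gave calls in both directions, with 3 of 10 higher (32.9%), Tapbp, Psmb9 and Tap2, and 1 lower (13.4%), H2-D1. Both counts lay near the share of all genes, and WT/PBS held only 44 T cells. Of 3 genes counted in pericytes, 2 were higher, H2-D1 and B2m (22.5%). Psmb9 passed in each of KPC cells, ECs, CAFs, macrophages, neutrophils and T cells, though its T cell level in WT/PBS rests on 15 UMIs.

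GCV gave few calls in host classes. In macrophages none was higher (11.1% of genes) and 1 was lower (9.46%), Nlrc5 at 0.499-fold (0.355 to 0.713), while H2-K1 was at 1.05 and B2m at 0.978. In CAFs 1 of 9 counted was higher (6.58%), Psmb9 at 1.67 from 36 and 18 UMIs, with an interval of 0.923 to 3.12 that spans equal levels. None of 3 counted in neutrophils (12.9%) and none of 4 in T cells (21.1%) was higher, and in B cells 1 of 4 was (22.1%), Psmb8.

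Cell classes could be tested against each other, since every library holds them. The class sums of the libraries were fitted in edgeR with the library as a block, and the p-values, adjusted over all genes tested, measure only the spread between 4 libraries that also differ in treatment. ECs were higher than KPC cells for 9 of 10 genes (18.7% of 15752 genes) and lower for none (23.5%). Tap2 differed most, by 4.53 ± 0.43 on the log2 scale (SE, n = 4 libraries, edgeR adjusted p = 5.49e-07), then Psmb8 by 3.47 ± 0.41 and Tap1 by 3.36 ± 0.48. H2-K1 was higher by 2.30 ± 0.32 (edgeR adjusted p = 3.5e-05) and B2m by 1.61 ± 0.20 (edgeR adjusted p = 9.8e-06). These are averages over libraries, and the gap depended on the library. For H2-K1 it was smaller in D-CAN, with 719 CPM in ECs and 422 CPM in KPC cells, against 211 and 27.5 CPM in Pdgfrb-TK/PBS. For Tapbp it was not smaller than in WT/PBS, at 131 and 80.4 CPM in D-CAN against 47.6 and 36.0 CPM. Psmb10 alone did not pass, at -0.44 ± 0.20 (edgeR adjusted p = 0.0875), and its CPM was higher in ECs in 1 of 4 libraries. TMM, which the fit uses, moves EC against KPC differences by -0.17. The constitutive subunits Psmb5, Psmb6 and Psmb7 were all lower in ECs, by -0.91, -0.92 and -0.74, and so were Psme1 and Psme2.

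Macrophages were higher than KPC cells for all 10 genes (26.7% of genes), neutrophils for 9 (18.4%), T cells for 8 (15.1%), B cells for 8 (11.8%, 3 libraries) and CAFs for 7 (24.6%). Pericytes were higher for 4 (10.8%, 3 libraries), B2m, Tap2, Psmb8 and Nlrc5. None of the 10 was lower than in KPC cells in any class, against 23.5% of all genes in ECs, 31.0% in macrophages, 27.8% in neutrophils, 24.8% in T cells, 18.4% in B cells, 26.5% in CAFs and 13.4% in pericytes. The B cell count fell to 4 without the Pdgfrb-TK/GCV library and the pericyte count to 1 without WT/PBS. H2-D1 in CAFs was at 0.54 (edgeR adjusted p = 0.0915) and Nlrc5 at 0.60 (edgeR adjusted p = 0.421), neither past the threshold.

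**Figure D5:**
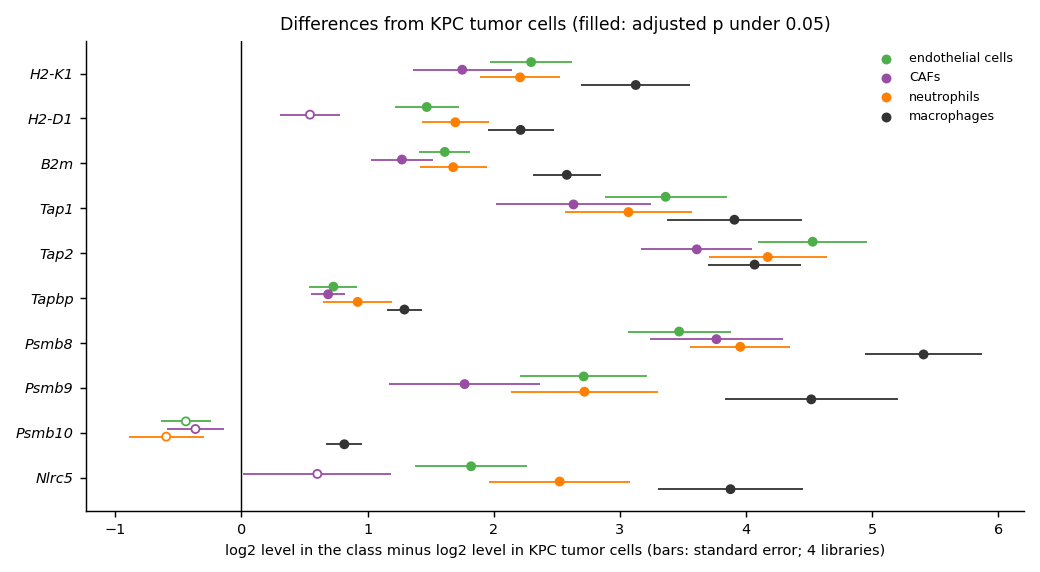
Log2 difference of each gene between ECs, CAFs, neutrophils or macrophages and KPC cells, from edgeR with the library as a block, with SE bars over 4 libraries and filled points for an adjusted p under 0.05. ECs lie above 0 for each gene but Psmb10, which lies above 0 in macrophages alone.

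In mean level over libraries, KPC cells came last of 8 classes for 6 genes, B2m, H2-D1, Tap1, Tap2, Tapbp and Psmb8. They came next to last for H2-K1, Psmb9 and Nlrc5 and at rank 4 for Psmb10. Means of pericytes and B cells cover 3 libraries and those of the other classes 4. KPC cells were over pericytes in 1 of 3 libraries for H2-K1 and 2 of 3 for Psmb9. They were over CAFs in 1 of 4 for Nlrc5 and over ECs in 3 of 4 for Psmb10. In the D-CAN library H2-D1 in KPC cells, at 528 CPM, was above its highest level in CAFs (473 CPM) and in pericytes (412 CPM). Most neighbours in these orders differed by less than the spread over libraries. T cells over macrophages exceeded it for H2-K1 (1.20 SD), Tap1 (1.33 SD) and Nlrc5 (2.10 SD). So did T cells over ECs for Tap2 (1.02 SD), B cells over CAFs for H2-D1 (1.49 SD) and pericytes over KPC cells for Psmb8 (1.35 SD). Over 27 sums of at least 50 cells, which share libraries and classes, the genes whose log2 level was most like the mean of the 10 included H2-Q7 (Pearson's r = 0.884), H2-Q4 (0.881), Slc9a9 (0.866) and H2-Q6 (0.827), among 7874 genes. Each of the 10 genes correlated with the mean of the others at 0.613 (Psmb10) to 0.967 (H2-K1).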

How the data were processed

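Tumors were dissociated and sequenced on the 10x Genomics droplet platform, 1 library per condition. The raw UMI counts per gene and cell are as the authors deposited them, made with Cell Ranger and STAR 2.6 on mm10 per the labels, while the matrix header names cellranger 7.0.0. The D-CAN and WT/PBS matrices list 32290 features and the Pdgfrb-TK matrices 32285, and 32285 were used for all. The labels' extraction text describes nuclei of another tissue, so the study's methods were followed. The genes and lists were chosen with earlier results of these data known: the 10 genes, the pathway lists and the 5 genes most like them in level were named, except for an item that is not reported here. Counts were summed per library and class (at least 20 cells, though alternatives could hold fewer) over cells with at least 200 genes. Cells were classed by markers of 11 classes, with no doublet caller, and cells with 2 or more markers of another class on were left out in an alternative. Exact 95% binomial intervals for shares and fold intervals cover counting error only. Class contrasts used edgeR 4.0.16 quasi-likelihood tests (R 4.3.3, filterByExpr, TMM) with Benjamini-Hochberg adjustment at 0.05, the other comparisons Python 3.11.15. In simulated EC against KPC counts, 200 of 15752 genes were raised in ECs. The edgeR fit recovered 43% of genes raised 2-fold and 79% of those raised 4-fold, and 23 of 145 calls were false. The measured EC contrast called a far larger share of genes (18.7% higher, 23.5% lower), so these rates need not hold for it. Alternatives used the other PBS library, other cell filters, gates, depths, totals and pseudocounts, subtraction of host RNA, DESeq2 1.42.0 and each library left out.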

Additional observations from a re-analysis of the deposited data

How the results depend on the processing

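In KPC cells all 10 genes were at least 1.5-fold higher in D-CAN under every alternative tried, and in ECs 8 to 9 were. The share of all genes past the fold was not computed under the alternatives. Their counts therefore cannot be set against a general shift. Depth limits the ECs and the scarce genes. The D-CAN median log2 ratio in KPC cells, 2.96 as reported, was 2.87 against the other PBS library, 2.96 in cells with at least 500 genes, 2.99 at no more than 20% mitochondrial UMIs, 3.08 without cells that had 2 or more markers of another class on, 2.94 with 2 markers needed, 3.02 with 4, 2.66 at 2000 UMIs per cell, 3.06 without mitochondrial and ribosomal protein genes in the totals, 2.87 with TMM, 1.56 with a pseudocount of 10 CPM and 3.32 after subtracting host RNA. For the last value Psmb8 and Psmb9 were set to 0 in WT/PBS, and Tap1, Tap2 and Nlrc5 lost most of their level there, which enlarges their ratios. The GCV median in KPC cells, 0.32, was 0.063 with the pseudocount of 10 CPM and 0 after subtraction. That subtraction set Psmb8, Tap2 and Nlrc5 to 0 in both libraries and Tap1 to 0 in Pdgfrb-TK/PBS. In subsets chosen after seeing the data, the GCV count of higher genes, 3, was 6 with Hmga2 and Klhl1 off, 0 with 1 lower with Krt19 and Krt7 off, 6 at 500 to 5000 UMIs and 5 at 5000 to 15000 UMIs. No share of all genes was computed for these subset counts.

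In ECs under GCV, 1 gene was lower against the other PBS library, 0 were higher in the purer gate (H2-K1 at -0.13, with 13 Pdgfrb-TK/GCV cells), and at 2000 UMIs per cell 0 were higher and 1 was lower (median -0.26, H2-K1 at -0.29). In the class contrasts 1 gene, Psmb10, became lower in ECs with no filter on low counts, in the purer gate, and without the Pdgfrb-TK/GCV library. Leaving out 1 library at a time gave 8 to 9 genes higher and 0 to 1 lower in ECs, 4 to 8 higher in B cells (4 without Pdgfrb-TK/GCV) and 1 to 6 in pericytes (1 without WT/PBS, where Nlrc5 was at -0.030, the low end of a range up to 4.02). Nlrc5 in ECs was at 1.19 and no longer passed without WT/PBS, and Tapbp in ECs was at 0.49 and no longer passed in the purer gate. Without the D-CAN library, 3 differences of single genes between a class and KPC cells that had not passed did pass. The cause of these shifts was not tested. Conditions could not be paired, because the labels carry no replicate numbers that pair libraries and each condition has 1 library. The class contrasts did compare classes within libraries, with the library as a block.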
